A study of Mus musculus with 12 samples.

Results

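The transcripts of the natriuretic peptide system were examined in left ventricular muscle of pressure-overloaded and sham-operated mice. The 7 genes were Nppa (NCBI Gene 230899) and Nppb (18158), which encode the hormones ANP and BNP, Corin (53419) and Furin (18550), which encode the proteases that cleave their precursors, and Npr1 (18160), Npr2 (230103) and Npr3 (18162), which encode the receptors. They were taken by gene identifier from the 18079 genes of the deposited table. All 7 were among the 11664 genes that had at least 1 FPKM in at least 3 mice and were tested. FPKM divides the fragments of a gene by its length and by the size of the library, so levels can be set side by side between genes.

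The study asked whether hispidulin, a plant flavonoid, alters the cardiac response to pressure overload. Male C57BL/6 mice (C57BL/6J in the study's methods) underwent banding of the descending aorta (AB) or a sham operation in which the chest was opened and no band was tied. From 1 day ahead of surgery they received hispidulin at 20 mg/kg/day or the solvent DMSO by intraperitoneal injection, and left ventricles were taken 4 weeks after surgery, at 12 weeks of age. The 4 groups, DMSO+Sham and DMSO+AB without hispidulin and Hispidulin+Sham and Hispidulin+AB with it, held 3 mice each, with 1 library per mouse.

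ANP and BNP are made by cardiomyocytes and released when the wall of the heart is stretched. In the healthy adult heart ANP is a product of the atria, and its return in the ventricle is a classical sign of hypertrophy. Corin, a membrane protease of cardiomyocytes, cuts pro-ANP into the active hormone, whereas furin acts on pro-BNP and also activates other proteins. The guanylyl cyclase receptor encoded by Npr1 answers ANP and BNP with cGMP, the receptor encoded by Npr2 answers C-type natriuretic peptide, and the receptor encoded by Npr3 binds all of them and removes them from the circulation.

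Nppa and Nppb are neighbours on chromosome 4, and the RefSeq promoter starts of the pair (build GRCm38.p6) lie 14822 bases apart on the same strand. Sequence is shown for these hormone genes because both passed the test after banding. All 7 genes had an entry in the RefSeq promoter table, Furin with 2. In the following lines capitals mark matches to GATAA (GATA factors) and AAGTG (NKX factors) and CATTCC (the M-CAT element of TEAD factors), each on both strands, and to TATAAA on the gene's own strand. No match overlapped another.
Nppa, chr4:148000472-148000721, plus strand, the 250 bases ahead of the start: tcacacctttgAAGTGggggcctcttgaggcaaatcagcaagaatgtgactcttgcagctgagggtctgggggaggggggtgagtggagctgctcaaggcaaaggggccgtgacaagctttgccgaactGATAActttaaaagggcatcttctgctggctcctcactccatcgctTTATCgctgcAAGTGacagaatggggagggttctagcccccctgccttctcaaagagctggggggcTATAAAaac
Nppb, chr4:147985793-147985822, plus strand, 107 to 78 bases ahead of the start: caGGAATGcagctGATAAatcagaGATAAc
Only 30 bases are shown for Nppb, because a GENCODE transcript begins 112 bases ahead of the RefSeq promoter start. By that annotation the bases shown, and all Nppb matches counted here, lie within transcribed sequence, whereas by RefSeq they lie ahead of the start. Over the 250 bases, Nppa and Nppb each held 2 matches to GATAA, as did 4.18% of 32536 windows of that length with 2 or more, and the windows of the other 5 genes held 0. A TATAAA was present in both, against 7.55% of all windows, and Furin also held 1 TATAAA and 4 AAGTG. Nppb also held 1 CATTCC (12.6% of windows) and Nppa 2 AAGTG (2 or more in 10.2% of windows). These matches describe the letters of the window and were not tested for binding.

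The libraries of 3 mice stood apart by atrial markers, though not by every atrial gene listed. The ventricular markers Myl2, Myl3, Irx4 and Hey2 summed to between 17797 and 25294 FPKM in all 12 mice, whose tissue label is left ventricular muscle. Nearly all of that sum was Myl2 and Myl3 (means of 14242 and 7803 FPKM, against 11.8 for Irx4 and 2.46 for Hey2). Myl7, the atrial myosin light chain, was at 333 FPKM in Hispidulin+Sham mouse 3, 67.5 in DMSO+AB mouse 2 and 42.3 in Hispidulin+AB mouse 3, against 0.24 to 15.0 in the other 9 mice. The atrial genes Myl4, Sln and Dkk3 were also highest in these 3 mice. Kcnj3 did not set them apart, at 15.2, 4.79 and 6.39 FPKM in the same order, against 3.95 to 15.1 in the other 9. Hispidulin+Sham mouse 3 also had the highest sum of 5 erythroid genes, at 10251 FPKM against 2237 to 5028 in the other 11 mice, and the part of this in its other values was not tested. Results that rest on these 3 libraries are given with and without them. Sequencing depth is unknown, because FPKM and not counts were used, so no counting error can be given. Numbers in the sample labels begin with 1, 5 or 6, and differences within the 5 and 6 series are given as a check, since the labels state no batch.

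Aortic banding was followed by higher Nppa and Nppb and lower Corin in mice given DMSO. In this comparison 3 of the 7 genes passed an adjusted p under 0.05, where 5.21% of all genes tested passed (limma, Benjamini-Hochberg over all genes). Averaged over DMSO and hispidulin, AB against Sham again gave Nppa and Nppb as higher and Corin as lower, against 7.39% of all genes. These 862 genes were 411 higher and 451 lower. With median-of-ratios scaling 793 genes passed, 458 higher and 335 lower. The 4 genes Furin, Npr1, Npr2 and Npr3 did not pass in any comparison. The median log2 fold change of the 7 genes under AB with DMSO was 0.10, and that of all genes tested was -0.03.

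**Figure D1:**
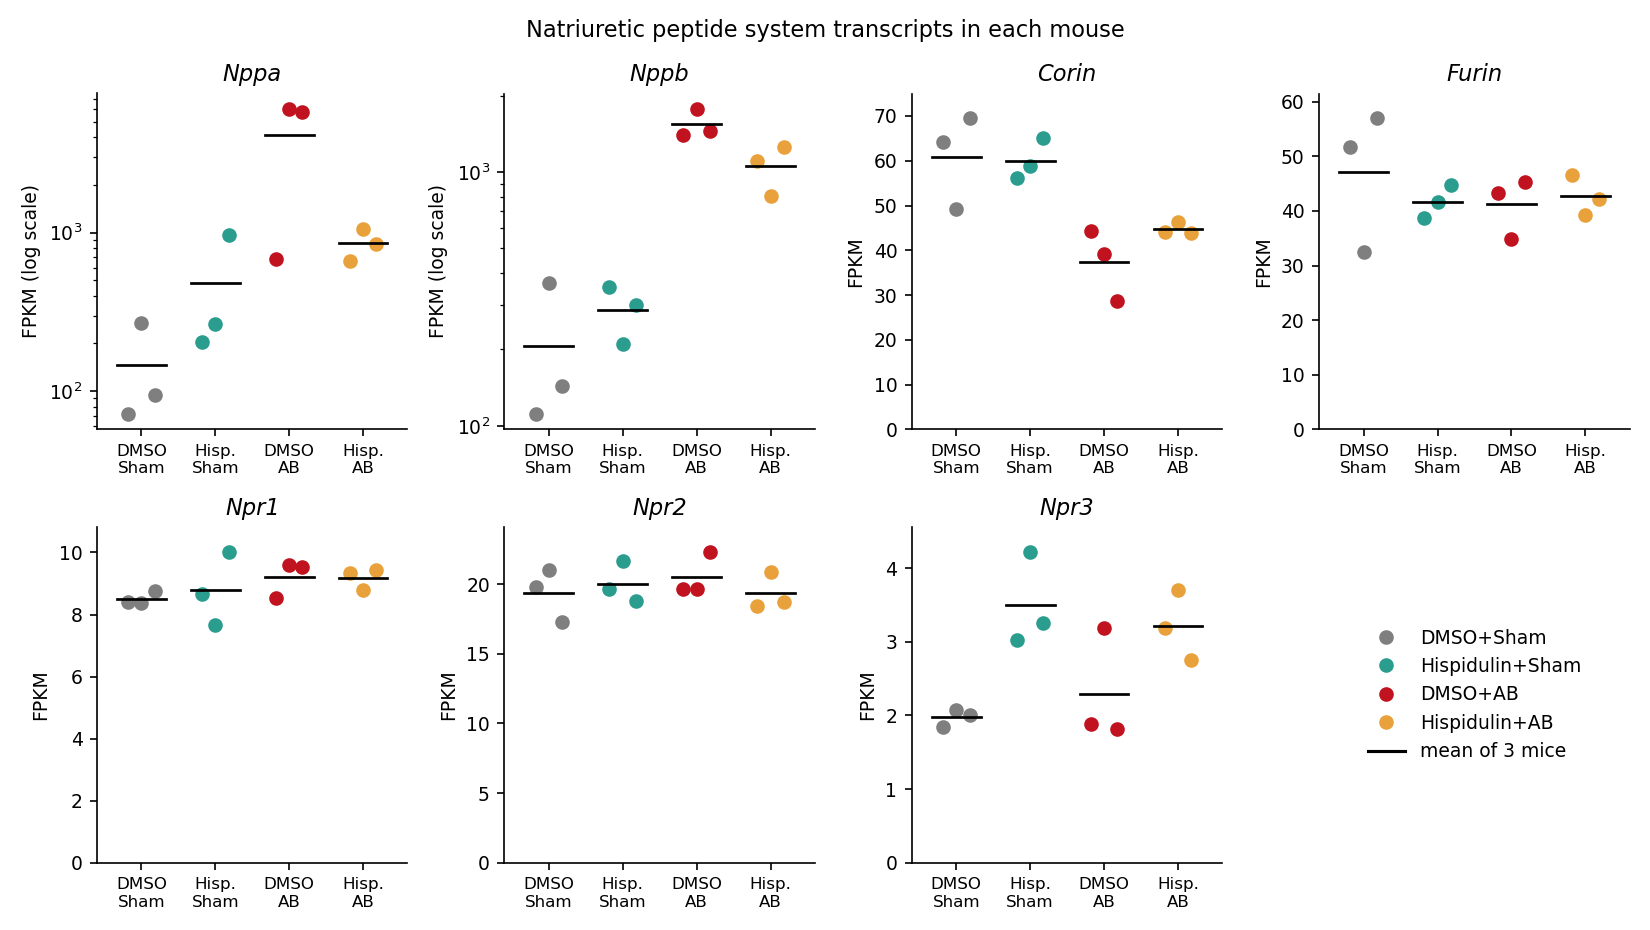
FPKM of the 7 transcripts in each mouse by group, with a log axis for Nppa and Nppb and linear axes from 0 for the others; points are mice and lines are means of 3. All 6 banded mice lay above all 6 sham mice for Nppb and below them for Corin (4.96% of all genes tested were separated in either direction), whereas 1 Hispidulin+Sham mouse (967 FPKM) reached the range of the banded mice for Nppa.

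Nppb, the BNP gene, separated banded from sham mice completely. It was at 111, 366 and 143 FPKM in the DMSO+Sham mice and at 352, 210.0 and 298 in the Hispidulin+Sham mice. After banding it was at 1394, 1774 and 1451 FPKM with DMSO and at 1103, 801 and 1250 with hispidulin. The lowest banded mouse thus stood above the highest sham mouse. A separation of 6 against 6 mice, in either direction, was shown by 4.96% of all genes tested. The log2 fold change after banding was 3.08 with DMSO (SE 0.36, limma adjusted p = 0.0036), an 8.45-fold rise on the FPKM + 1 scale. Averaged over both treatments it was 2.48 (SE 0.25, adjusted p = 0.000613, exact permutation p = 0.005, the smallest possible). Without the 3 libraries of high Myl7 these values were 2.97 (adjusted p = 0.0542) and 2.38 (adjusted p = 0.0329). With both treatments pooled, banded and sham mice differed by 2.16 within the 5 series (2 and 3 mice) and by 2.55 within the 6 series (4 and 2 mice).

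In mice given hispidulin Nppb was 1.88 higher on the log2 scale after banding (SE 0.36), which did not pass over all genes (limma adjusted p = 0.178). There 0 of the 7 genes passed, and 0% of all genes did, although 847 had an unadjusted p under 0.05. The 3 banded mice again all exceeded the 3 sham mice. Separation in either direction was seen in 20.9% of genes in this comparison and 17.9% with DMSO. Adding the replicate number as a block raised the number of genes called to 17, and left Nppb at an adjusted p of 0.179. Nppb passed when DMSO+Sham mouse 2 was left out (adjusted p = 0.0240), when limma weighted the libraries (adjusted p = 0.00714) and when only the libraries compared were fitted (adjusted p = 0.00881).

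Nppa, the ANP gene, spanned the widest range of the 7. It was at 71.8, 269 and 94.95 FPKM in the DMSO+Sham mice and at 204, 264 and 967 in the Hispidulin+Sham mice. With banding it was at 680.2, 6043 and 5738 FPKM with DMSO and at 666, 1047 and 849.6 with hispidulin. DMSO+AB mice 2 and 3 were therefore far above mouse 1, which lay within the range of the Hispidulin+AB group. With DMSO the log2 fold change after banding was 4.54 (SE 0.81, limma adjusted p = 0.0121), a 23.2-fold rise on the FPKM + 1 scale. Nppa took place 14 by mean FPKM among the 11664 genes in DMSO+AB and place 525 in DMSO+Sham. Averaged over both treatments the change was 2.85 (SE 0.57, adjusted p = 0.0135, exact permutation p = 0.015).

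The Nppa call with DMSO depended on single mice. It missed the threshold without DMSO+Sham mouse 1 (log2 fold change 4.15, limma adjusted p = 0.0565), without DMSO+AB mouse 2 (4.00, adjusted p = 0.0592) and without DMSO+AB mouse 3 (4.04, adjusted p = 0.0530). Without the 3 libraries of high Myl7 it was 4.00 with DMSO (adjusted p = 0.103) and 2.92 averaged (adjusted p = 0.0822). With both treatments pooled, the difference was 3.17 within the 5 series and 2.10 within the 6 series. With hispidulin Nppa was 1.17 higher after banding (SE 0.81, adjusted p = 0.852), and the groups overlapped. That difference was 0.73 without Hispidulin+Sham mouse 1, 1.85 without Hispidulin+Sham mouse 3 and 1.84 without the 3 libraries. Its sign turned between the number series, at 1.87 within the 5 series and -0.21 within the 6 series, with 1 or 2 mice per group.

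Atrial marker levels did not follow Nppa in every mouse. DMSO+AB mouse 3 had 5738 FPKM of Nppa and 0.24 of Myl7, with the atrial calcium pump regulator Sln listed at 0, whereas DMSO+AB mouse 2 had 6043 of Nppa and 67.5 of Myl7. Hispidulin+Sham mouse 3 held the highest Myl7 of all, and its 967 FPKM of Nppa was the highest among sham mice. Over the whole list of 6 atrial genes, Bmp10 was not in the table used here and the other 5 summed to 24.4 to 56.4 FPKM in DMSO+Sham, 14.3 to 801 in Hispidulin+Sham, 11.4 to 189 in DMSO+AB and 14.5 to 102 in Hispidulin+AB. Of the 5, 0 rose and 1 (Kcnj3, an atrial potassium channel) fell after banding with DMSO, where 5.21% of all genes passed. The part of atrial tissue in the Nppa levels was not tested in any mouse. In whole ventricle, fewer cells of a type and less RNA per cell cannot be told apart.

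**Figure D2:**
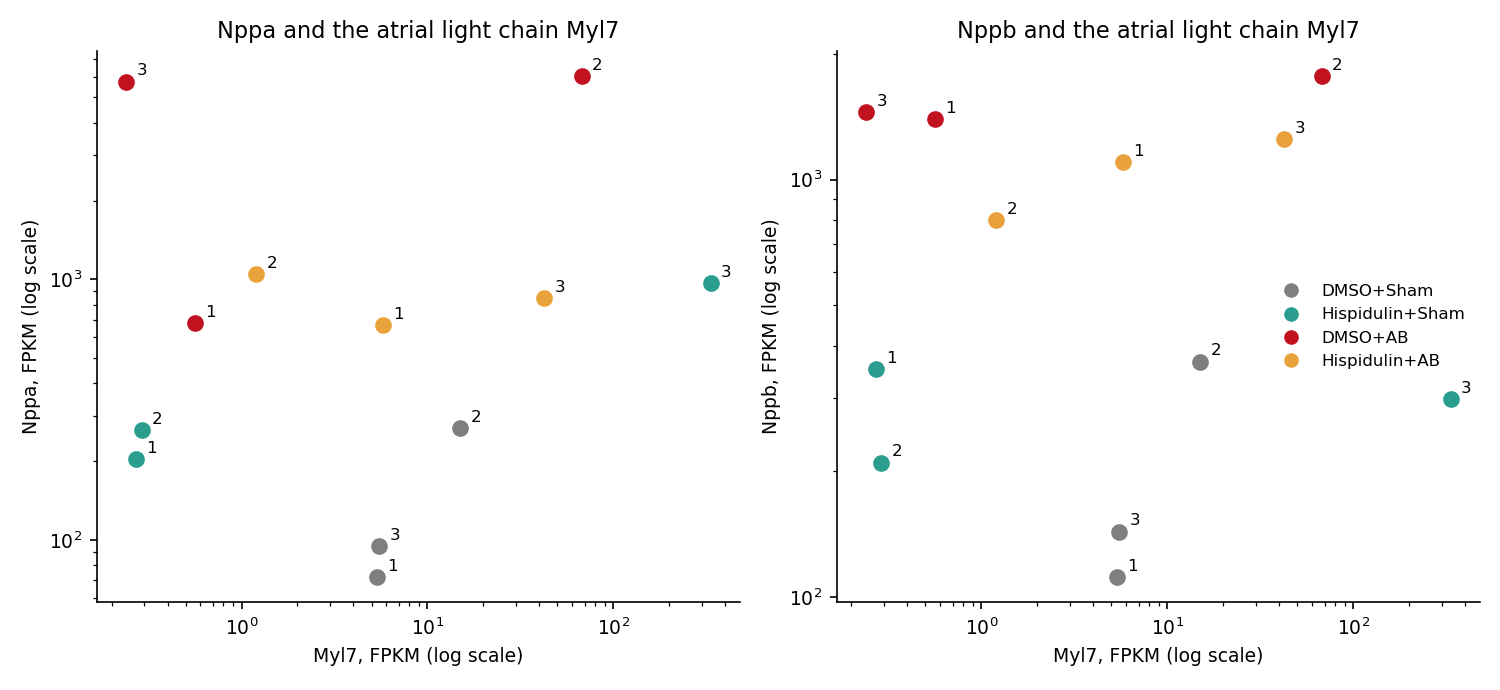
Nppa (left) and Nppb (right) against the atrial light chain gene Myl7, in FPKM on log axes, 1 point per mouse with its number. DMSO+AB mice 2 and 3 had similar Nppa (6043 and 5738 FPKM) at Myl7 of 67.5 and 0.24 FPKM, and Nppb was at least 801 FPKM in each banded mouse and at most 366 in each sham mouse.

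The balance of the hormone transcripts was compared within each mouse. The log2 ratio of Nppb to Nppa was 0.63, 0.44 and 0.59 in DMSO+Sham mice, so that Nppb was the more abundant in each. It was 0.79, -0.33 and -1.70 in Hispidulin+Sham mice, 1.04, -1.77 and -1.98 in DMSO+AB mice and 0.73, -0.39 and 0.56 in Hispidulin+AB mice. Thus Nppa exceeded Nppb in 5 of the 9 mice outside DMSO+Sham, and the sign varied within each of the other 3 groups. Between banded and sham mice the ratio differed by -1.46 with DMSO (exact permutation p = 0.4) and by 0.71 with hispidulin (exact permutation p = 0.7), directions that were opposite, and by -0.38 averaged (exact permutation p = 0.62). The averaged value lay between -0.86 (without DMSO+AB mouse 1) and -0.076 (without Hispidulin+Sham mouse 1) with single mice left out. Its SD ran from 0.10 in DMSO+Sham to 1.68 among the DMSO+AB mice.

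Hispidulin was not followed by a change of either hormone transcript that passed the test. In banded mice Nppa was -1.77 on the log2 scale against DMSO (SE 0.81, 95% interval -3.53 to -0.01, limma adjusted p = 0.996), with an exact permutation p of 0.3. It was -2.81 without DMSO+AB mouse 1 and lay between -2.81 and -1.23 with single mice left out, and was -1.24 without the 3 libraries of high Myl7. Nppb was -0.57 (SE 0.36, 95% interval -1.35 to 0.21, adjusted p = 0.996), and the 3 Hispidulin+AB mice lay below the 3 DMSO+AB mice. That separation gives an exact permutation p of 0.1, the smallest for 3 against 3, and was seen in either direction in 7.88% of all genes. In this comparison 0 of the 7 genes and 0% of all genes passed, with 362 genes at an unadjusted p under 0.05. In sham mice Nppa was 1.60 higher with hispidulin (SE 0.81) and Nppb 0.63 higher (SE 0.36), and neither passed (limma adjusted p = 1.00 for both). The Nppa difference was 0.91 without Hispidulin+Sham mouse 3, the library with the highest Myl7. That of Nppb was 0.29 without DMSO+Sham mouse 1, 1.14 without DMSO+Sham mouse 2, 1.01 with library weights and 0.24 with the number series as a covariate. The sign turned between the number series. In sham mice the Nppa difference was -0.21 within the 5 series and 3.33 within the 6 series, and that of Nppb was -0.43 and 1.05. These rest on 1 or 2 mice per group.

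Whether the response to banding differed with treatment was tested as an interaction, which was -3.37 for Nppa (SE 1.14, unadjusted p = 0.0122) and -1.20 for Nppb (SE 0.51, unadjusted p = 0.035) in limma. Neither passed over all genes (adjusted p = 1.00), and 0% of all genes did, with 289 at an unadjusted p under 0.05. Without the 3 libraries of high Myl7 the interaction was -2.16 for Nppa and -1.19 for Nppb. The DMSO+Sham mice had the lowest mean Nppa (145 ± 108 FPKM, SD, n = 3) and the DMSO+AB mice the highest (4154 ± 3012), with Hispidulin+Sham (478 ± 424) and Hispidulin+AB (854 ± 191) between them. Of the comparisons run between these groups, DMSO+AB against DMSO+Sham passed, and no pair of neighbours in the order of their means did.

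**Figure D3:**
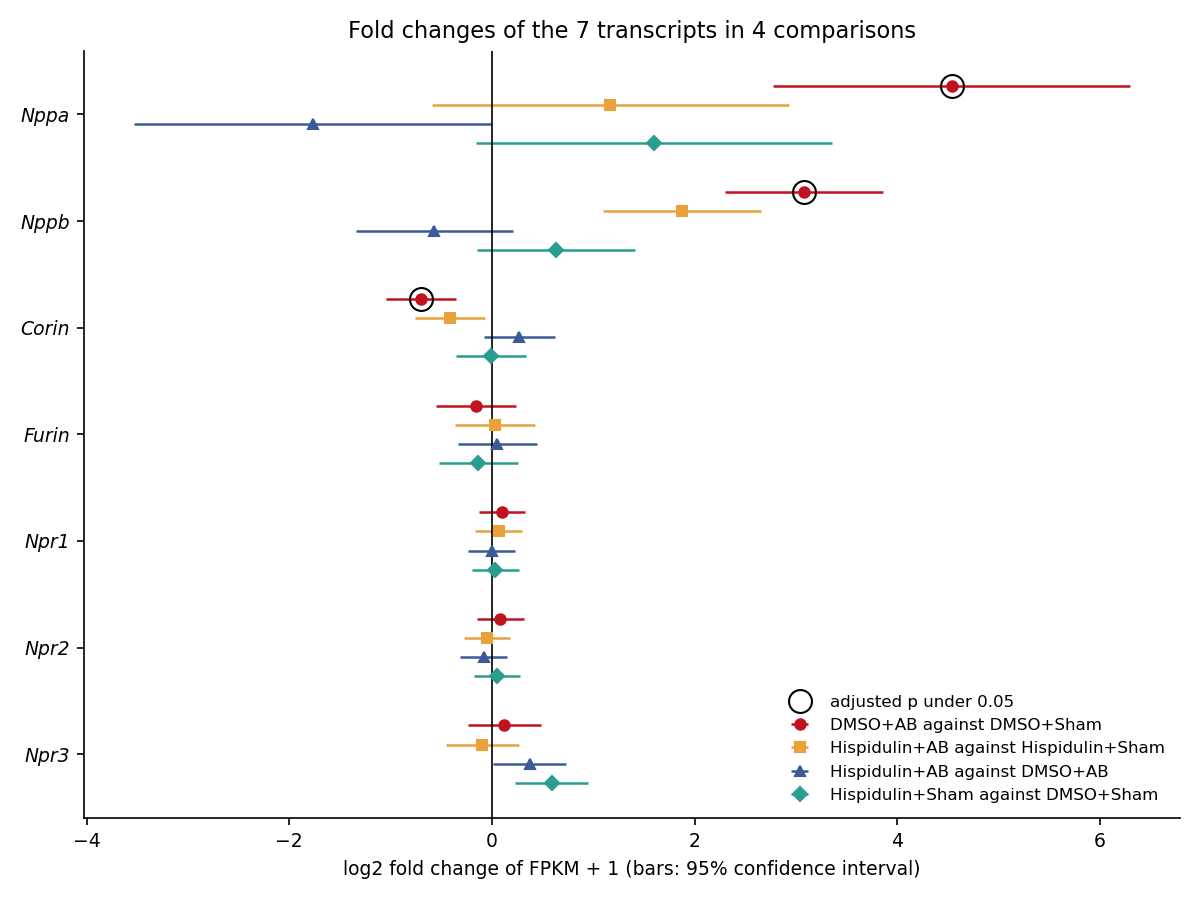
Log2 fold changes of FPKM + 1 for the 7 transcripts in 4 comparisons from limma, with 95% confidence intervals; circles mark an adjusted p under 0.05. Only Nppa, Nppb and Corin after banding with DMSO are circled, at 4.54, 3.08 and -0.70, and every interval of Furin, Npr1 and Npr2 includes 0.

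Corin, whose product activates ANP, fell after banding. Its FPKM was 64.2, 49.2 and 69.5 in DMSO+Sham mice and 56.1, 58.9 and 65.1 in Hispidulin+Sham mice. After banding it was 44.4, 39.3 and 28.7 with DMSO and 44.1, 46.2 and 43.9 with hispidulin. All 6 banded mice were below all 6 sham mice, a separation in either direction that 4.96% of all genes tested showed, and the Hispidulin+AB group was the tightest. The log2 fold change was -0.70 with DMSO (SE 0.16, limma adjusted p = 0.0298) and -0.55 averaged over both treatments (SE 0.11, adjusted p = 0.0139, exact permutation p = 0.005, the smallest possible). With hispidulin it was -0.41 (SE 0.16, adjusted p = 0.608). With both treatments pooled, the difference was -0.61 within the 5 series and -0.62 within the 6 series.

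The Corin call with DMSO was near the threshold. It was lost without DMSO+Sham mouse 1 (limma adjusted p = 0.111), DMSO+Sham mouse 3 (0.0707), DMSO+AB mouse 2 (0.0850), DMSO+AB mouse 3 (0.0820) or Hispidulin+AB mouse 1 (0.0509), at log2 fold changes of -0.84 to -0.52 over all single omissions. Without the 3 libraries of high Myl7 the averaged change was -0.54 (adjusted p = 0.149). Corin is a gene of cardiomyocytes, and the cardiomyocyte markers Myh6, Tnnt2, Tnni3, Actn2 and Ryr2 summed to 16602 to 20182 FPKM in sham and 14676 to 17890 in banded mice. Averaged over both treatments Actn2 rose (0.29, limma adjusted p = 0.0194), Ryr2 fell (-0.38, adjusted p = 0.0418) and the other 3 did not pass, where 7.39% of all genes passed. Their part in the Corin difference was not tested. Hispidulin against DMSO in banded mice gave 0.27 for Corin (SE 0.16, adjusted p = 0.996), and 0.097 without DMSO+AB mouse 3.

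Furin, whose product cuts pro-BNP, showed no such separation. It was at 51.7, 32.5 and 57.0 FPKM in DMSO+Sham, 38.8, 41.7 and 44.7 in Hispidulin+Sham, 43.3, 34.9 and 45.4 in DMSO+AB and 46.6, 39.2 and 42.2 in Hispidulin+AB. The banded mice lay inside the sham range. The averaged change after banding was -0.06 on the log2 scale (95% interval -0.34 to 0.21, limma adjusted p = 0.817). The log2 ratio of Corin to Furin was 0.46 ± 0.13 (SD, n = 6) in sham mice and -0.04 ± 0.32 (n = 6) in banded mice (difference -0.50, exact permutation p = 0.005). The difference held between -0.58 and -0.37 when each mouse, or the 3 high-Myl7 libraries, were left out. This ratio was not among the tests planned. Corin alone gave the same exact permutation p of 0.005, so the p of the ratio is no independent evidence.

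Npr2, the receptor of C-type natriuretic peptide, was the most abundant receptor transcript per length. It was at 19.8, 21.0 and 17.3 FPKM in DMSO+Sham, 19.6, 21.7 and 18.8 in Hispidulin+Sham, 19.6, 19.6 and 22.3 in DMSO+AB and 18.4, 20.9 and 18.7 in Hispidulin+AB. Its ligand gene Nppc was at most 0.24 FPKM in any mouse. The averaged change of Npr2 after banding was 0.02 (95% interval -0.15 to 0.18, limma adjusted p = 0.921). Reads of Npr2 may include some of the overlapping gene Spag8, which was at 0 to 0.43 FPKM.

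Npr1, the cGMP-forming receptor of ANP and BNP, varied little. It was at 8.40, 8.36 and 8.77 FPKM in DMSO+Sham, 8.67, 7.65 and 10.02 in Hispidulin+Sham, 8.52, 9.60 and 9.52 in DMSO+AB and 9.33, 8.80 and 9.45 in Hispidulin+AB. The groups overlapped, and the averaged change after banding was 0.08 (95% interval -0.08 to 0.25, limma adjusted p = 0.553). It was 0.041 without Hispidulin+Sham mouse 2 and 0.13 without Hispidulin+Sham mouse 3. All 12 mice lay between 7.65 and 10.02 FPKM.

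Npr3, the clearance receptor, was the lowest of the 7. It was at 1.84, 2.08 and 2.00 FPKM in DMSO+Sham and at 3.03, 4.22 and 3.26 in Hispidulin+Sham. In banded mice it was at 1.88, 3.19 and 1.81 with DMSO and at 3.18, 3.70 and 2.75 with hispidulin. The sham groups did not overlap, a separation seen in 5.6% of all genes, whereas DMSO+AB mouse 2 reached into the Hispidulin+AB range. The log2 fold change with hispidulin was 0.59 in sham mice (SE 0.17, 95% interval 0.23 to 0.95, unadjusted limma p = 0.00392, adjusted p = 1.00, exact permutation p = 0.1). In banded mice it was 0.37 (SE 0.17, 95% interval 0.01 to 0.73, unadjusted p = 0.0439).

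Hispidulin against DMSO averaged over AB and Sham was added after these values were seen. There Npr3 was 0.48 higher (SE 0.12, unadjusted limma p = 0.00146, exact permutation p = 0.015), which did not pass over all genes (adjusted p = 0.999). It took place 3 by p among the 11664 genes, and 0% of all genes passed, in sham mice alone likewise. The difference was 0.63 without the 3 libraries of high Myl7. With AB and Sham pooled, it was 0.54 within the 5 series (3 hispidulin and 2 DMSO mice) and 0.40 within the 6 series (3 and 3). AB against Sham gave 0.01 for Npr3 (95% interval -0.24 to 0.27, adjusted p = 0.961). The endothelial markers Pecam1, Cdh5, Kdr, Tek, Tie1 and Egfl7 summed to 281 to 296 FPKM in DMSO+Sham, 277 to 329 in Hispidulin+Sham, 316 to 342 in DMSO+AB and 327 to 351 in Hispidulin+AB. Their part in the Npr3 values was not tested.

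As a share of the summed FPKM of the 3 receptors, Npr3 was 6.13, 6.62 and 7.14% in DMSO+Sham mice and 9.67, 12.6 and 10.2% in Hispidulin+Sham mice. After banding it was 6.26, 9.84 and 5.38% with DMSO and 10.3, 11.1 and 8.89% with hispidulin. The share was therefore 10.4 ± 1.27% (SD, n = 6) in hispidulin mice and 6.89 ± 1.56% (n = 6) in DMSO mice, with DMSO+AB mouse 2 inside the hispidulin range. The difference was 3.55 percentage points (exact permutation p = 0.01). This comparison was chosen after the Npr3 values were seen, so the p is no independent evidence, and Npr3 itself had an adjusted p of 0.999 over all genes in limma. AB against Sham gave -0.09 points (exact permutation p = 0.935). Npr2 held 58.6 to 66.8% and Npr1 22.8 to 31.3% over all mice, so the order of the 3 receptors was the same in each.

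**Figure D4:**
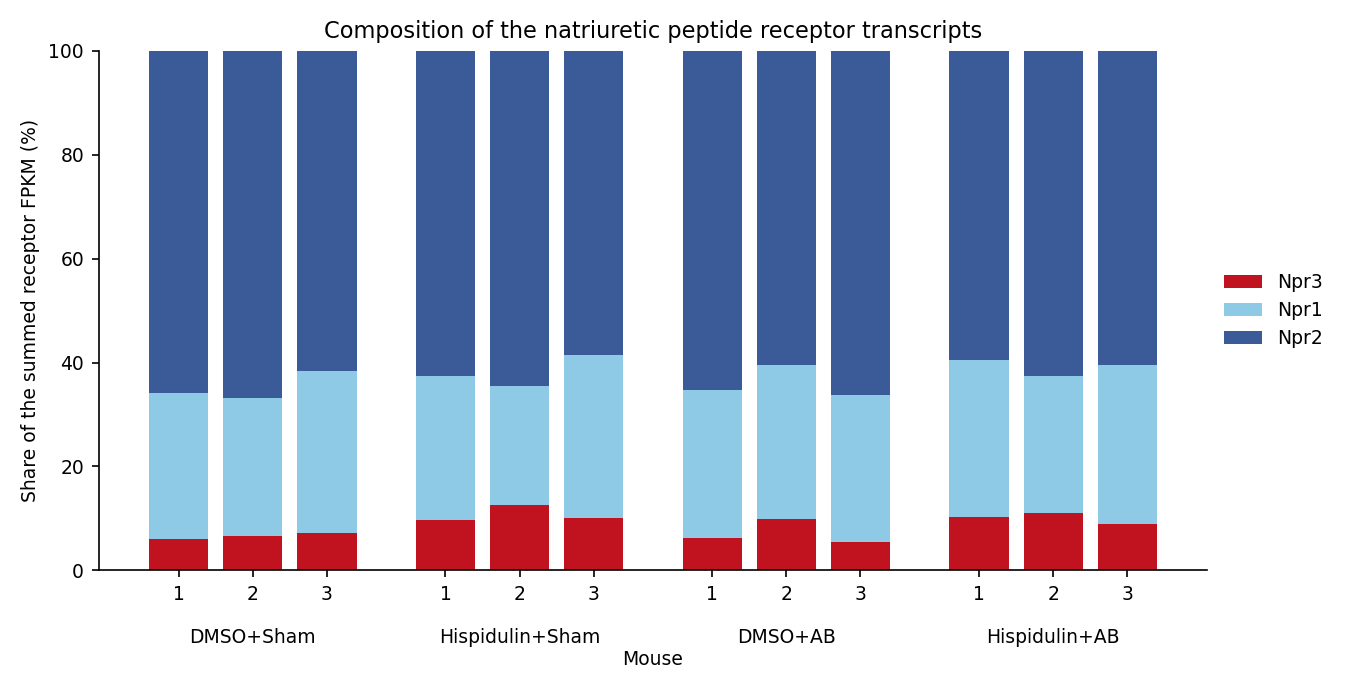
Share of Npr3, Npr1 and Npr2 in the summed FPKM of the 3 receptor transcripts, in percent, with 1 stacked bar per mouse. The Npr3 share was 5.38 to 9.84% in the 6 DMSO mice and 8.89 to 12.6% in the 6 hispidulin mice, and Npr2 was the largest share in each mouse.

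Other genes of the pathway were taken from a list of 18, of which 17 were in the table and 13 were tested. After banding with DMSO 0 rose and 1 fell (5.21% of all genes passed), and averaged over both treatments again 0 rose and 1 fell (7.39% of all genes), so that the list's counts were close to those shares. The median log2 fold change of the 13 in the averaged comparison was -0.08, and that of all genes was -0.03. The gene that fell was Pln, which encodes phospholamban, the inhibitor of the sarcoplasmic calcium pump and a target of cyclic-nucleotide kinases. Pln was at 2472, 3115 and 2673 FPKM in DMSO+Sham, 2343, 2789.8 and 2678 in Hispidulin+Sham, 2119, 1959 and 1367 in DMSO+AB and 2099, 2368 and 2128 in Hispidulin+AB. The Pln change after banding was -0.62 on the log2 scale with DMSO (SE 0.15, limma adjusted p = 0.0396) and -0.43 averaged (SE 0.11, adjusted p = 0.0326). The call with DMSO was lost under 17 of 23 alternatives (adjusted p up to 0.211, log2 fold change -0.74 to -0.43 over all 23), among them leaving out any mouse but DMSO+AB mouse 1. The averaged call was lost under 11 of 22 (up to 0.196, log2 fold change -0.50 to -0.33 over all 22), among them leaving out DMSO+Sham mouse 1 or 2 or any hispidulin mouse.

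The cGMP phosphodiesterase gene Pde2a was the most abundant of the list members that did not pass, at a mean of 25.6 FPKM and an averaged change of -0.08 (adjusted p = 0.726). Ide, whose product degrades insulin and natriuretic peptides, had a mean of 18.1 FPKM and -0.16 (adjusted p = 0.225), and Pcsk6, whose product activates corin, 17.4 FPKM and 0.06 (adjusted p = 0.902). Pde5a, Prkg2, Nppc and Ostn were below the filter, Pde5a at 0.62 to 0.93 FPKM. With hispidulin 0 of the 13 genes passed in banded or in sham mice.

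Of 14 transcription factor genes known to act on the hormone genes, 1 rose and 0 fell after banding with DMSO (5.21% of all genes passed), and 1 rose and 1 fell in the averaged comparison (7.39% of all genes, median -0.04). Jun, a subunit of AP-1, was at 25.7, 25.7 and 20.4 FPKM in DMSO+Sham and 44.6, 32.1 and 35.9 in DMSO+AB, a log2 fold change of 0.62 (SE 0.15, limma adjusted p = 0.0376). In hispidulin mice it was at 27.5, 22.2 and 26.2 after sham surgery and 28.5, 25.1 and 33.6 after banding, and the averaged change was 0.41 (adjusted p = 0.0402). The call with DMSO was lost under 14 of 23 alternatives (adjusted p up to 0.183, log2 fold change 0.49 to 0.73 over all 23), among them leaving out DMSO+Sham mouse 1 or 3, Hispidulin+Sham mouse 1 or 3, any DMSO+AB mouse or Hispidulin+AB mouse 1. The averaged call was lost under 14 of 22 (up to 0.166, log2 fold change 0.34 to 0.46 over all 22), among them leaving out any mouse but DMSO+Sham mouse 2, DMSO+AB mouse 2 and Hispidulin+AB mouse 2. Tbx5, a T-box factor of the developing heart and a partner of NKX and GATA factors, was at 14.7, 8.61 and 14.0 FPKM in DMSO+Sham, 14.0, 12.5 and 14.8 in Hispidulin+Sham, 6.47, 7.15 and 9.27 in DMSO+AB and 8.56, 8.18 and 9.51 in Hispidulin+AB. Its averaged change was -0.61 (SE 0.13, adjusted p = 0.0163), while with DMSO alone it was -0.62 (adjusted p = 0.0709). The averaged call was lost with the number series as a covariate (-0.55, adjusted p = 0.0527) and without the 3 libraries of high Myl7 (-0.59, adjusted p = 0.163), and the change with DMSO passed with the replicate block (0.0440), with library weights (0.00748) and without DMSO+Sham mouse 2 (0.00711).

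The most abundant of the factors that did not pass were Nkx2-5 (mean 55.2 FPKM, averaged change -0.03), Hand2 (41.7 FPKM, 0.14) and Mef2d (40.4 FPKM, -0.16). Of the factors whose motif letters are capitalised in the sequences, Gata4 was at -0.06, Gata6 at -0.26 (limma adjusted p = 0.0761) and Tead1 at 0.14 in the averaged comparison, and none of them passed. The letters of a promoter say nothing on which factor was active in these mice.

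**Figure D5:**
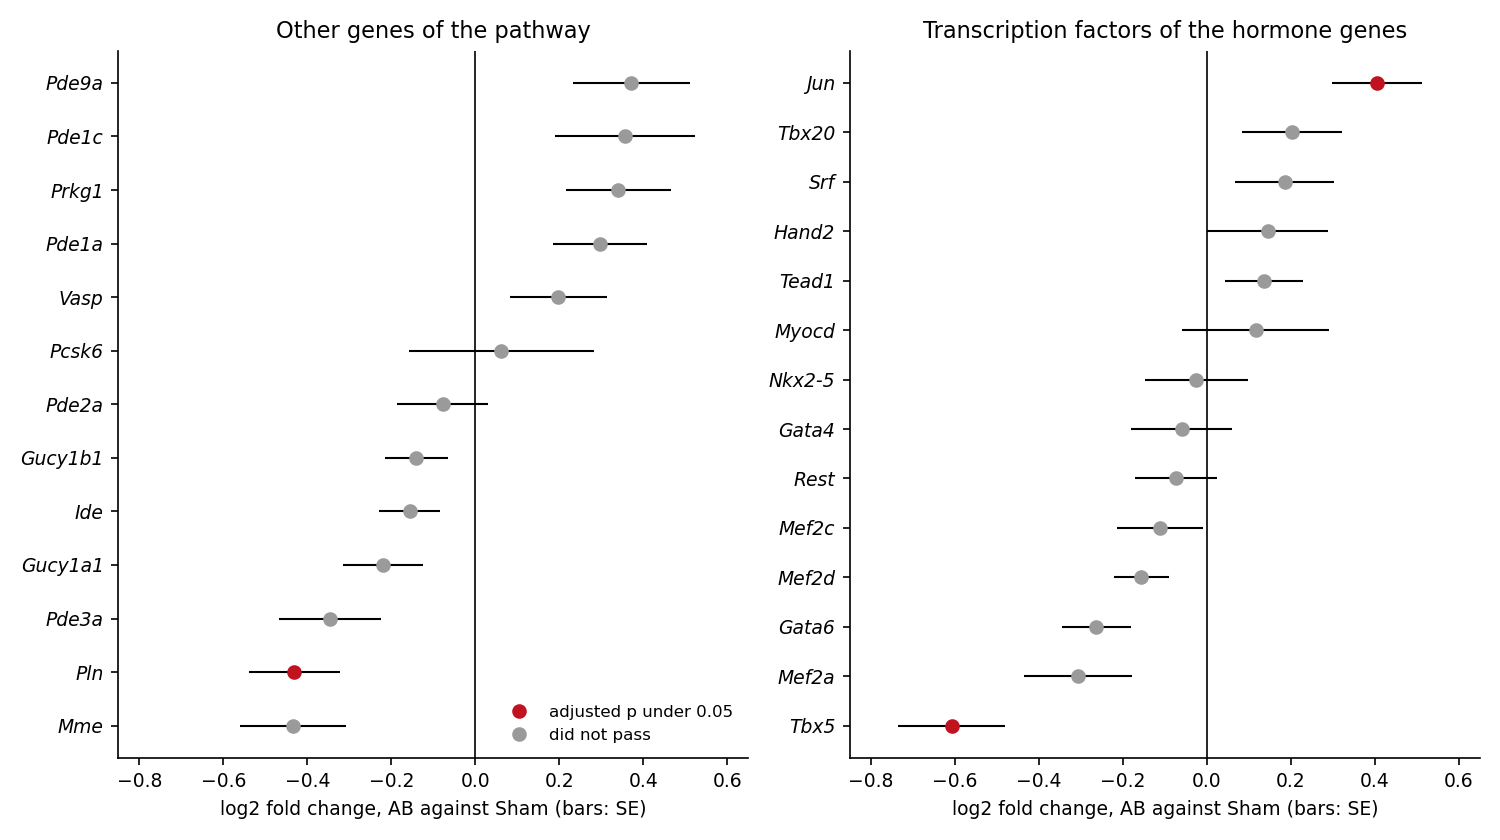
Log2 fold change of FPKM + 1 between AB and Sham, averaged over DMSO and hispidulin, for 13 pathway genes (left) and 14 transcription factor genes (right), with bars of 1 SE. Red points passed an adjusted p under 0.05 (Pln at -0.43, Jun at 0.41 and Tbx5 at -0.61) and grey points did not.

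The genes whose pattern over the 12 mice was most like that of each transcript were listed by Pearson's r of log2(FPKM + 1), given as a description since the mice share groups and libraries. For Nppa they were Pam (r = 0.970), Pla1a (0.967), Pcolce (0.964), Sh3d19 (0.961) and Bgn (0.956). Pam encodes the peptide-amidating enzyme abundant in atrial granules, at 153 to 295 FPKM here, and Pcolce and Bgn encode matrix proteins. Of 6 fibroblast markers 2, the collagen genes Col1a1 and Col1a2, rose after banding with DMSO (5.21% of all genes passed) and 0 passed with hispidulin (0% of all genes). The summed FPKM of the 6 was 330 to 395 in DMSO+Sham, 332 to 444 in Hispidulin+Sham, 351 to 701 in DMSO+AB and 362 to 533 in Hispidulin+AB. Dcn, which held most of that sum, was at 0.16 on the log2 scale after banding with DMSO (limma adjusted p = 0.690). For Nppb they were Synpo2l (0.966), 1810055G02Rik (0.965), Meox1 (0.952), Tax1bp3 (0.951) and Aen (0.951). Synpo2l encodes an actin-binding protein of heart and skeletal muscle, and none of the 5 was shared with Nppa.

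The genes most like Corin were Ppip5k2 (0.978), Dlg1 (0.967) and Agtpbp1 (0.964), and those most like Furin were Tacc2 (0.909), Nfrkb (0.909) and Mylip (0.879). For the receptors the closest were Umps (0.897), P4ha1 (0.874) and P2rx7 (0.858) with Npr1, Tmem8b (0.949), Ctdnep1 (0.938) and Poldip2 (0.929) with Npr2, and Dzip1 (0.839), Cry1 (0.795) and Brd9 (0.793) with Npr3. Correlations were tested for 5 pairs among the 7, within the 6 banded and within the 6 sham mice only, since surgery split the mice into clusters. Nppa and Nppb correlated at r = 0.606 (exact permutation p = 0.211, Spearman's rho 0.60) in banded mice and r = 0.720 (p = 0.106, rho 0.71) in sham mice. Without the 2 mice farthest from the median of Nppa, r was -0.76 in banded and 0.74 in sham mice, so the banded relation rested on those mice. Of 10 relations of Nppa and Nppb with each other, Corin and Npr3, 0 passed adjustment (adjusted exact permutation p of 0.398 to 0.786).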

How the data were processed

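RNA of left ventricular muscle from 12 mice was sequenced by the authors on a BGISEQ-500 as single-end reads of 50 bases from polyadenylated RNA, and 1 table of FPKM per gene and mouse was deposited. The submitters' processing notes name HISAT2 2.0.4, Bowtie2 2.2.5, RSEM 1.2.12 and DESeq2 1.4.5, and the genome build is not given in the sources used here. FPKM are scaled to the library total, so a few very abundant transcripts lower all others, and read counts cannot be had from them. Summed FPKM were 535235 to 567027 per mouse. Groups came from the sample titles. Genes were named through RefSeq by NCBI Gene ID (17947 of 18079).

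From the FPKM, log2(FPKM + 1) was fitted with limma 3.58.1 in R 4.3.3, with 1 mean per group over all 12 mice (8 error degrees of freedom) and a mean-variance trend, two-sided, for the 11664 genes with at least 1 FPKM in at least 3 mice. Adding 1 understates changes of low genes such as Npr3. P-values were adjusted by Benjamini-Hochberg over all genes tested, with a threshold of 0.05. Exact permutation tests were two-sided (Python 3.11.15), stratified by treatment or surgery where 2 comparisons were averaged (400 arrangements, smallest p 0.005). The script was tested on simulated data.

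The members and gene lists were chosen with earlier results of these data known. The genes named were the 7 members, list genes that passed and at most 3 others of highest mean FPKM per list, and the 5 (hormones) or 3 (others) genes of highest Pearson's r. Gata4, Gata6 and Tead1 were added after their values were seen, for the motifs shown. Replicate numbers belong to different animals. Same-numbered residuals correlated above 0.1 in all 3 pairs of Hispidulin+Sham with Hispidulin+AB (0.147 to 0.228) and with DMSO+Sham (0.126 to 0.33). For the other groups not all 3 pairs did, with r down to -0.198 in DMSO+AB with DMSO+Sham and -0.422 in DMSO+AB with Hispidulin+Sham. The block was therefore taken as an alternative. Other alternatives were 0.1 in place of 1, no filter or at least 5 FPKM, the number series as a covariate, library weights, no trend, quantile normalization, median-of-ratios scaling, only the libraries compared, and leaving out mice. P-values of limma set a difference of means against the spread between mice within groups, moderated over all genes. Those of the permutation tests rest on relabelling the mice.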

Additional observations from a re-analysis of the deposited data

How the results depend on the processing

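Nppb after banding passed with DMSO under each alternative except leaving out the 3 high-Myl7 libraries (log2 fold change 2.97, adjusted p = 0.0542), and averaged over both treatments it passed under all 22 alternatives (2.31 to 2.78, adjusted p up to 0.0329). Nppa with DMSO missed the threshold with the number series as a covariate (4.18), with only the libraries compared (4.54) and without the 3 libraries (4.00), and lay between 4.00 and 5.57 with single mice left out. Averaged, Nppa missed it without the 3 libraries (2.92). Corin with DMSO missed it with no filter or only the libraries compared (-0.70 in both) and without the 3 libraries (-0.74), and lay between -0.84 and -0.52 with single mice left out. Averaged, Corin missed it without the 3 libraries (-0.54). Nppb in hispidulin mice passed with library weights (1.96) and only the libraries compared (1.88), and lay between 1.67 and 2.06 with single mice left out. Leaving mice out also lowers the number of error degrees of freedom. Adjusted p-values are from limma.

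The number of genes called after banding with DMSO, 608, was 383 with no filter, 1423 with library weights, 142 with the number series, 11 with only the libraries compared, 20 without the 3 libraries and 91 to 1053 with single mice left out. With hispidulin, 0 became 2 with no filter, 2 with median-of-ratios scaling, 3 with quantile normalization, 209 with library weights, 49 with only the libraries compared and 0 to 9 with single mice left out. Averaged, 862 became 2535 with library weights, 547 with the number series, 74 without the 3 libraries and 376 to 1220 with single mice left out. Hispidulin against DMSO in banded mice gave 2 with no filter and 0 to 20 with single mice left out, its average over AB and Sham 0 to 2 and the interaction 0 to 3. The replicate block gave 640, 17 and 866 calls after banding with DMSO, with hispidulin and averaged. It moved no other number of calls by over 1.5 times, and among the 7 genes it changed no call. The causes were not tested.

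Changes of sign were seen only in log2 differences that had not passed. With the number series as a covariate, Nppb under hispidulin averaged was -0.16, Corin under hispidulin in sham mice 0.085, Furin after banding with hispidulin -0.017, Furin under hispidulin averaged 0.015 and Npr3 after banding averaged -0.029. Without the 3 libraries, Nppb under hispidulin averaged was -0.0041, Furin after banding averaged 0.020 and under hispidulin in banded mice -0.052, Npr1 under hispidulin 0.0078 in banded mice, -0.056 in sham mice and -0.024 averaged, with an interaction of 0.064, Npr2 under hispidulin averaged 0.0014, and Npr3 after banding -0.063 with DMSO and -0.056 averaged, with an interaction of 0.014. Library weights gave -0.0031 for Npr1 under hispidulin averaged and -0.031 for Npr2 after banding averaged. Quantile normalization gave 0.0012 for Corin under hispidulin in sham mice and 0.016 for Npr2 under hispidulin averaged.

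With single mice left out, the ranges that crossed 0 after banding were, averaged, -0.18 to 0.014 for Furin, -0.021 to 0.046 for Npr2 and -0.079 to 0.070 for Npr3, with DMSO -0.063 to 0.23 for Npr3, and with hispidulin -0.033 to 0.089 for Furin, -0.019 to 0.16 for Npr1, -0.10 to 0.0066 for Npr2 and -0.18 to 0.017 for Npr3. Those under hispidulin in banded mice were -0.058 to 0.13 for Furin and -0.052 to 0.026 for Npr1, and in sham mice -0.15 to 0.091 for Corin, -0.37 to 0.020 for Furin, -0.056 to 0.12 for Npr1 and -0.026 to 0.11 for Npr2. Under hispidulin averaged they were -0.60 to 0.20 for Nppa, -0.14 to 0.29 for Nppb, -0.16 to 0.037 for Furin, -0.029 to 0.058 for Npr1 and -0.053 to 0.014 for Npr2, and the interaction of Npr1 was -0.12 to 0.054. The Npr3 share differed by -0.76 to 0.35 percentage points between AB and Sham, and the Nppb to Nppa ratio by -0.18 to 0.60 under hispidulin. The Npr3 share under hispidulin stayed at 3.11 to 4.22 points (exact permutation p of 0.005 to 0.015). It was 4.68 without the 3 libraries (exact permutation p = 0.0167, the smallest possible with so few mice). Depth is unknown, so counting error at the low level of Npr3 could not be given.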
